A study of Mus musculus with 8 samples.

Results

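The genes examined here were 8 genes of peroxisomal fatty acid oxidation, chosen by name for their place in the pathway. They were Abcd3, Acox3, Ehhadh, Hsd17b4, Acaa1a, Scp2, Crat and Pex11a, and they were found through the transcript accession of each array probe. All 8 had a probe and passed the filter on dim probes, so that they were 8 of 14137 genes tested and of 18749 gene symbols with a probe. RNA came from whole No. 4 mammary glands of female C57/Bl6 mice, 4 wild-type (WT) dams and 4 dams lacking Th-POK (KO), all age-matched and taken on lactation day 1. Each gland was hybridized to 1 one-colour array. The deletion was carried by the whole animal, not by the epithelium alone, and Th-POK, the product of Zbtb7b, is a zinc finger transcription factor best known from the choice of the helper fate by T cells. The question addressed was whether transcripts of this oxidation pathway differed between lactating glands with and without Th-POK.

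Peroxisomes are small organelles that shorten fatty acids which mitochondria handle poorly, among them very long chain, branched and dicarboxylic fatty acids. An ABC transporter brings the acyl-CoA in, an acyl-CoA oxidase makes the first double bond and releases hydrogen peroxide, a bifunctional enzyme hydrates and dehydrogenates the product, and a thiolase cuts off a short chain. The shortened product leaves as a carnitine ester and is commonly finished in mitochondria. In liver, PPAR alpha is the classical activator of these genes, which it reaches through a direct repeat of the hexamer AGGTCA with 1 base between the copies. The lactating gland is best known for the opposite process, the making of milk fat.

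Promoter windows (250 bases before to 50 after a start site, RefSeq, GRCm38.p6) were at hand for 6 of the 8 genes, in 7 windows. The direct repeat was in none of the 7, against 0.0396% of all 32851 windows. Exact copies are so rare that any 7 windows would be likely to hold none, so this cannot show whether these genes have such a site. The single hexamer was in 1 of the 7, that of Scp2, against 16.3% of all windows. A GC box (GGGCGG) was in 5 of the 7 windows, against 35.7% of all windows. These windows belonged to 5 of the 6 genes, Acaa1a, Acox3, Ehhadh, Pex11a and Scp2. Both strands were searched for each of the 3 motifs, and a match is a match of letters only. The 120 bases before the start site are shown for Acox3, whose arrays did not overlap between genotypes, with the 4 GC boxes inside them in capitals. The last pair of these share 1 base, and a further GC box of Acox3 lies after the start site, outside the stretch. The same stretch is shown for Scp2 with only its AGGTCA in capitals. A GC box of Scp2 on the opposite strand, at -13 to -8 from the start, is left in lower case. The Acox3 stretch is chr5:35582914-35583033 on the plus strand, and the Scp2 stretch is chr4:108118548-108118667 on the minus strand, both in GRCm38.p6 and written 5′ to 3′.
Acox3: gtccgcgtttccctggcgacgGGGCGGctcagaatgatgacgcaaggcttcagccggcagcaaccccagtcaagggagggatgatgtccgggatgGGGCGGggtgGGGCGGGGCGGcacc
Scp2: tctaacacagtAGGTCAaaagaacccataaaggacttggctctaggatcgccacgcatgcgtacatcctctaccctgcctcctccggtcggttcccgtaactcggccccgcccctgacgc

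On the arrays of the whole series, Zbtb7b lay at a log2 signal of 9.90 to 10.42 in WT and was not well above background on any KO array, which makes it at least 81.5-fold lower in KO (limma, adjusted p = 5.71e-09). The share of probes well above background was 66.8% to 75.3%. The 4 WT arrays shared 1 slide and the 4 KO arrays shared the other, so that genotype and slide cannot be told apart. Over all genes, 2331 of 14137 (16.5%) passed an adjusted p of 0.05 in limma with Benjamini-Hochberg adjustment, 1065 of them higher in KO (7.53%) and 1266 lower (8.96%). For 3400 genes (24.1%) the 4 arrays of a genotype lay all above the 4 of the other. The median log2 difference, KO minus WT, was -0.02 over all genes, and 47.6% of genes were higher in KO on average.

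None of the 8 peroxisomal genes changed by the adjusted test. The limma count was 0 of 8, against 16.5% of all genes, and 1 of 8 had an unadjusted p under 0.05, as had 36.3% of all genes. The methods' t-test, the two-tailed test that the study's methods name, was computed on the same values and called 0 of 8 after adjustment and had 1 of 8 under 0.05 before it. On average 6 of the 8 were higher in KO and 2 lower, and their median log2 difference was 0.11. When arrays were scaled to their 75th percentile instead, 4 of the 8 were higher and the median was -0.01, so the side of 0 on which the group lay rested on the scaling. The median over all genes moved as well, from -0.024 as reported to -0.054 with that scaling, and the median of the 8 lay above it both times. Every gene was well above background on all 8 arrays, with log2 signals from 10.17 to 15.12. The 95% intervals of the 8 differences ran from -0.65 at the lowest to 0.77 at the highest, so that a 2-fold difference lay outside all of them, as it did for 75.1% of all genes tested. In whole tissue, fewer cells of a type and less RNA per cell cannot be told apart.

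**Figure D1:**
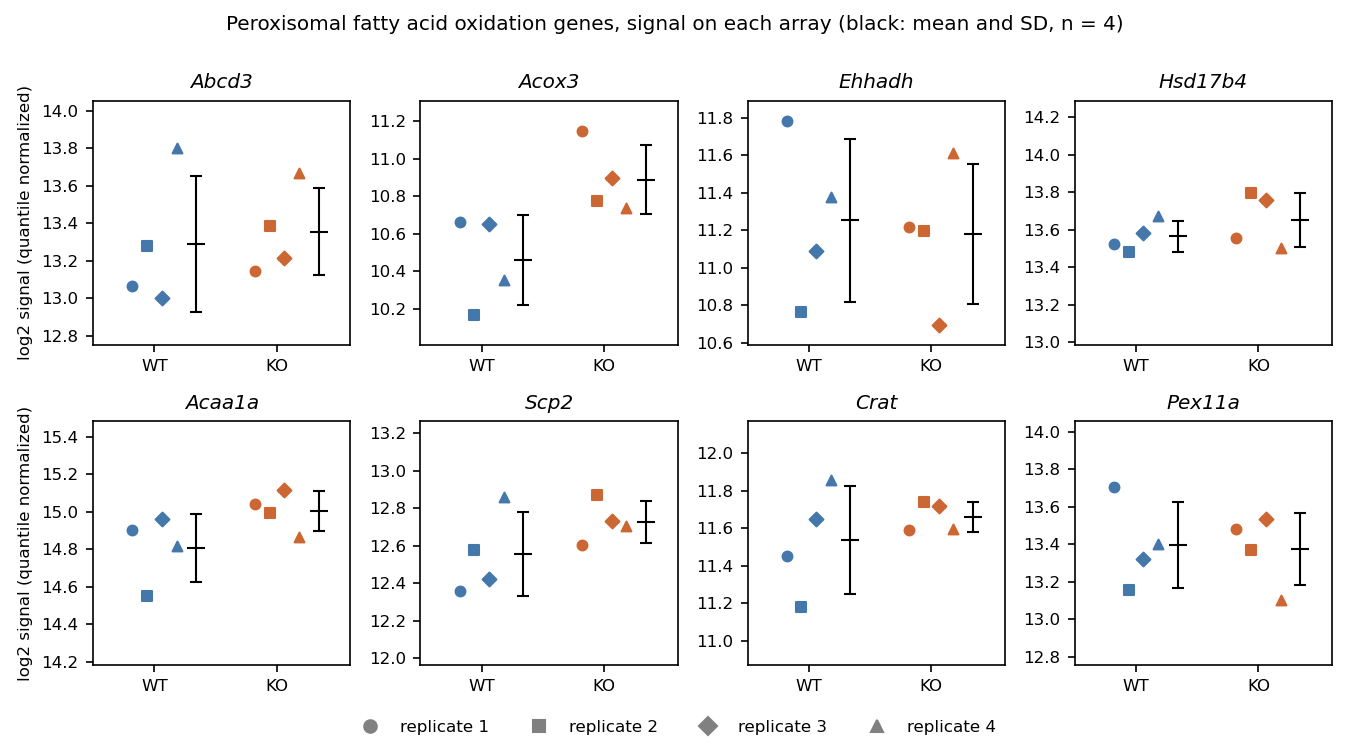
Quantile-normalized log2 signal of each of the 8 genes on the 4 WT and 4 KO arrays, with the mean and SD (n = 4) in black, where every panel spans the same height on the log2 scale. The genotypes overlap in all panels but that of Acox3, where the lowest KO array (10.74) lies above the highest WT array (10.66).

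Acox3 encodes an acyl-CoA oxidase of the branched-chain branch, the enzyme that takes 2-methyl-branched acyl-CoA into the pathway. Its log2 signal was 10.66, 10.17, 10.65 and 10.36 in WT replicates 1 to 4, and 11.15, 10.78, 10.89 and 10.74 in KO replicates 1 to 4. All KO arrays were above all WT arrays, the lowest WT array being replicate 2, and 1 of the 8 genes had such a separation, against 24.1% of all genes. The mean was 10.46 ± 0.24 (SD, n = 4) in WT and 10.89 ± 0.19 (SD, n = 4) in KO. The difference of 0.43 ± 0.15 (SE), or 1.35-fold with a 95% interval of 1.06 to 1.71, did not pass the adjusted test in limma (adjusted p = 0.080, unadjusted p = 0.020). With the replicate number as a block in limma, the same difference had an SE of 0.11 and an adjusted p of 0.044, which passed. KO was higher in 4 of 4 same-numbered pairs, which any pairing would give, since all KO arrays lay above all WT arrays. Without the block the adjusted p ran from 0.056 to 0.186 over the other 16 alternatives.

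The 3 genes whose centred signals followed those of Acox3 most closely over the 8 arrays were App, the amyloid precursor protein, Iqsec1, an exchange factor for ARF GTPases, and Wwp2, a ubiquitin ligase. Their root mean square distances from Acox3 were 0.055, 0.068 and 0.069 on the log2 scale, where the median of the 14136 genes searched was 0.38. Their own differences, KO minus WT, were 0.47, 0.35 and 0.41 in that order, and none passed the adjusted test in limma (adjusted p = 0.067, 0.103 and 0.094). Among the other 7 of the 8 genes the closest to Acox3 was Acaa1a, at a distance of 0.16 and rank 520.

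Abcd3 encodes the ABC transporter of the peroxisomal membrane, long known as PMP70. Its log2 signal was 13.07, 13.28, 13.004 and 13.80 in WT replicates 1 to 4, and 13.15, 13.39, 13.22 and 13.67 in KO replicates 1 to 4. Replicate 4 was the highest array in each genotype, and the genotypes overlapped over most of their range. The difference was 0.07 ± 0.20 (SE, limma, adjusted p = 0.832). It became -0.06 with 75th percentile scaling, and it was below 0 without WT replicate 1, WT replicate 3 or KO replicate 4 (between -0.01 and -0.04). A pair of dimmer probes for the same gene gave differences of 0.05 ± 0.26 and -0.09 ± 0.25 (SE), so that the 3 probes did not share a direction.

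The bifunctional enzymes were represented by Ehhadh, the L-specific enzyme and a standard PPAR alpha target of liver, and by Hsd17b4, the D-specific enzyme needed for branched chains and bile acid intermediates. Ehhadh gave 11.78, 10.76, 11.09 and 11.38 in WT replicates 1 to 4, and 11.22, 11.20, 10.696 and 11.61 in KO replicates 1 to 4. It was the most variable of the 8 in each genotype, with a range of 1.02 in WT and 0.92 in KO on the log2 scale. Its difference was -0.07 ± 0.25 (SE, limma, adjusted p = 0.855), and it was 0.10 without WT replicate 1 and 0.09 without KO replicate 3. Hsd17b4 gave 13.53, 13.48, 13.58 and 13.67 in WT replicates 1 to 4, and 13.56, 13.80, 13.76 and 13.50 in KO replicates 1 to 4. Its WT arrays were the tightest of any of the 8 genes, within 0.20, while its KO arrays fell into a higher pair (replicates 2 and 3) and a lower pair that lay within the WT range. The difference was 0.09 ± 0.11 (SE, limma, adjusted p = 0.583), with a 95% interval of -0.15 to 0.33, and it became -0.08 with 75th percentile scaling.

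Both thiolases were higher in KO on average and neither passed the test. Acaa1a, the 3-ketoacyl-CoA thiolase of the straight-chain route, gave 14.90, 14.55, 14.96 and 14.82 in WT replicates 1 to 4, and 15.04, 14.99, 15.12 and 14.86 in KO replicates 1 to 4. The highest 3 KO arrays lay above all WT arrays, KO replicate 4 fell between them, and KO was higher in 4 of 4 same-numbered pairs. The difference was 0.20 ± 0.12 (SE, limma, adjusted p = 0.264). The other probes for Acaa1a gave 0.06 ± 0.14 and 0.13 ± 0.18 (SE), and with 75th percentile scaling the difference was 0.03. Its close copy Acaa1b had a difference of 0.18 ± 0.18 (SE), and since probe sequences were not used here, signal shared between the copies cannot be told apart. Scp2, whose locus encodes the thiolase SCPx for branched chains as well as a sterol carrier protein, gave 12.36, 12.58, 12.42 and 12.86 in WT replicates 1 to 4. In KO it gave 12.60, 12.87, 12.73 and 12.70. WT replicate 4 stood with the KO arrays and the remaining WT arrays lay below all of them. The difference was 0.17 ± 0.13 (SE, limma, adjusted p = 0.373).

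Crat encodes carnitine acetyltransferase, which makes the carnitine ester of the acetyl group on its way out of the organelle, and which also works in mitochondria. Its log2 signal was 11.45, 11.18, 11.65 and 11.86 in WT replicates 1 to 4, and 11.59, 11.74, 11.72 and 11.59 in KO replicates 1 to 4. The KO arrays lay within 0.15 of each other and inside the WT range of 0.68. The difference was 0.12 ± 0.15 (SE, limma, adjusted p = 0.578), and it was 0.01 without WT replicate 2.

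Pex11a encodes a membrane protein that elongates and multiplies peroxisomes. Its log2 signal was 13.71, 13.15, 13.32 and 13.40 in WT replicates 1 to 4, and 13.48, 13.37, 13.54 and 13.11 in KO replicates 1 to 4. The difference was -0.02 ± 0.15 (SE, limma, adjusted p = 0.926), and it was 0.08 without WT replicate 1 and 0.07 without KO replicate 4. The probe was spotted 10 times on each array, and the SD between spots of an array, before normalization, was 0.027 to 0.053 on the log2 scale. The SD between arrays of a genotype was larger, at 0.23 in WT and 0.19 in KO (n = 4 each).

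**Figure D2:**
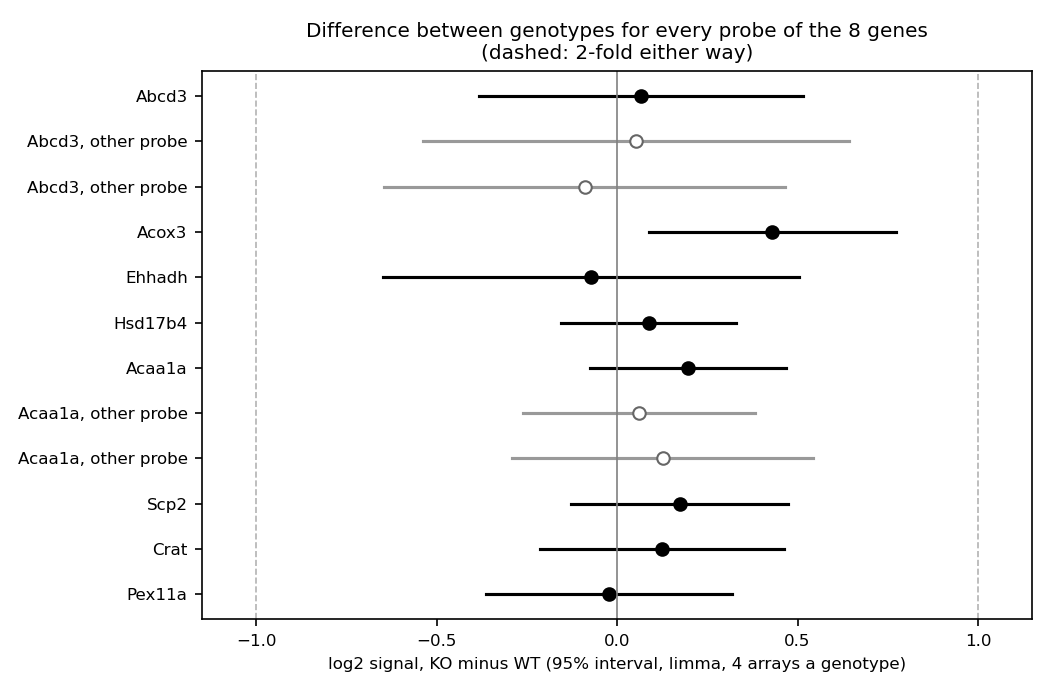
Difference in log2 signal, KO minus WT, with its 95% interval from limma (4 arrays a genotype) for each gene's reported probe (filled, black) and for the other probes of Abcd3 and Acaa1a (open, grey), where dashed lines mark 2-fold. All intervals lie inside 2-fold, and that of Acox3 (0.09 to 0.77) is the only one that leaves out 0.

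The spread among the 8 genes was shared in part. WT replicate 2 was the lowest WT array for 6 of them (Acox3, Ehhadh, Hsd17b4, Acaa1a, Pex11a and Crat), and WT replicate 4 was the highest for 4 (Hsd17b4, Abcd3, Scp2 and Crat). Over all probes, WT replicate 2 had the lowest share well above background among WT arrays (66.9%) and the lowest median log2 signal before normalization (6.10). Whether the shared spread was particular to these 8 genes was not tested. KO replicate 4 was the lowest KO array for 4 (Acox3, Hsd17b4, Acaa1a and Pex11a) and the highest for 2 (Ehhadh and Abcd3). For all 8 genes the WT arrays spanned more on the log2 scale than the difference between the genotypes.

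**Figure D3:**
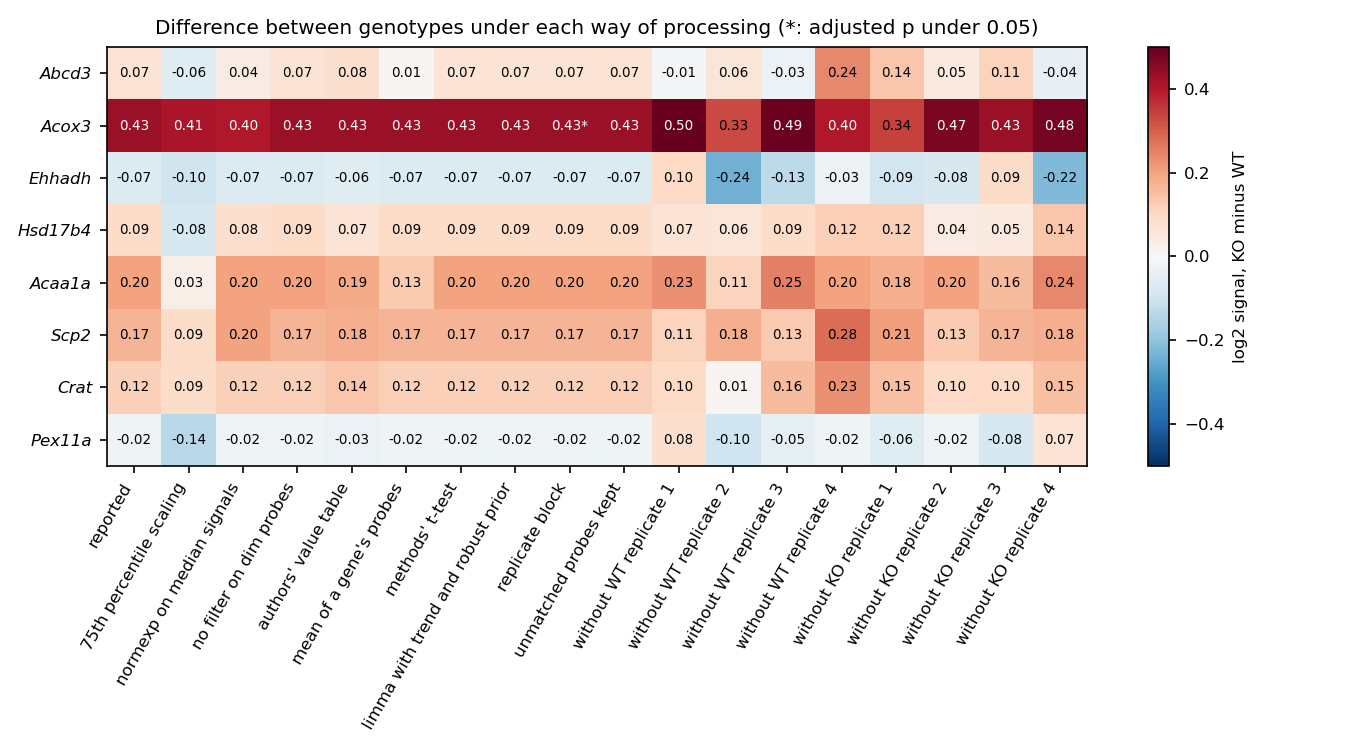
Difference in log2 signal, KO minus WT, of each gene (rows) as reported and under 17 other ways of processing (columns), with the value in each cell and an asterisk at an adjusted p under 0.05. The asterisk appears once, for Acox3 with the replicate block, and the column for 75th percentile scaling holds 4 values above 0, against 6 as reported.

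The remaining peroxisomal genes were taken as 3 lists of 52 genes in all, of which 49 were tested, and 9 passed, 3 of them higher in KO and 6 lower, which is 18.4% of those tested against 16.5% of all genes. Of 22 other enzymes and carriers of fatty acids, 2 rose, 0 fell and 20 did not pass, and the median difference was 0.18. That is 9.09% called, against 16.5% of all genes called in either direction and 7.53% called higher. Crot, which makes carnitine esters of medium-chain products of the pathway, was higher by 0.58 ± 0.12 (SE, limma, adjusted p = 0.019). Phyh, which prepares the branched chain of phytanic acid for alpha oxidation, was higher by 0.58 ± 0.15 (SE, limma, adjusted p = 0.035). Crot lost its call without WT replicate 2, KO replicate 1 or KO replicate 3 (adjusted p up to 0.058). Phyh lost it with the replicate block (adjusted p = 0.063), with the methods' t-test, with no filter, and without each array but WT replicate 4 and KO replicate 4 (adjusted p up to 0.097). The largest difference that did not pass was that of Slc27a2, a very long chain acyl-CoA synthetase, at 1.5 ± 0.49 (SE, limma, adjusted p = 0.065). It was 0.41 with normexp background correction (adjusted p = 0.113) and 1.86 without WT replicate 3 (adjusted p = 0.048), and its log2 signals, 3.23 to 6.44, were low. Acox2, an acyl-CoA oxidase that acts on branched chains and bile acid intermediates, was named after its values were seen and did not pass either, at -1.21 ± 0.44 (SE, limma, adjusted p = 0.091). It gave -1.57 without WT replicate 1 (adjusted p = 0.027) and -0.79 without WT replicate 4 (adjusted p = 0.124).

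Peroxins, which build the organelle and import its proteins, had 4 of 15 tested genes lower in KO and 0 higher, with 12 of 15 lower on average and a median difference of -0.24. Over all genes, 16.5% were called in either direction and 8.96% were called lower. Pex11g, a relative of Pex11a in organelle division, fell by 0.79 ± 0.11 (SE, limma, adjusted p = 0.0087). Pex26, which anchors the import ATPases, fell by 0.47 ± 0.12 (SE, limma, adjusted p = 0.032), and Pex16, which works in early membrane assembly, fell by 0.44 ± 0.11 (SE, limma, adjusted p = 0.035). Pex10, a ubiquitin ligase of the import machinery, fell by 1.08 ± 0.30 (SE, limma, adjusted p = 0.045). The count fell to 2 of 15 with the replicate block, where Pex26 (adjusted p = 0.058) and Pex16 (adjusted p = 0.062) did not pass. Pex10 did not pass with the methods' t-test (adjusted p = 0.096) or with dim probes kept (adjusted p = 0.069), nor Pex16 with normexp background correction (adjusted p = 0.053). The count was 1 of 15, Pex11g, without WT replicate 2, WT replicate 3, KO replicate 1, KO replicate 2 or KO replicate 3, 2 without WT replicate 4 and 3 without KO replicate 4, while 12 of 15 were lower on average in all 17 alternatives.

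Of 15 genes of peroxisomal redox and ether lipid metabolism, 12 were tested, 1 rose and 2 fell, or 25.0% called against 16.5% of all genes. Pxmp2, a channel of the peroxisomal membrane, rose by 0.65 ± 0.13 (SE, limma, adjusted p = 0.020). Pipox, which oxidizes pipecolic acid and sarcosine, fell by 2.77 ± 0.47 (SE, limma, adjusted p = 0.013). With normexp background correction Pipox fell by 1.75 (adjusted p = 0.016). Tysnd1, the protease that trims imported beta-oxidation enzymes, fell by 0.55 ± 0.11 (SE, limma, adjusted p = 0.018). Pxmp2 lost its call without WT replicate 2 or KO replicate 2 (adjusted p up to 0.054), and Tysnd1 without WT replicate 2, KO replicate 1 or KO replicate 3 (adjusted p up to 0.053). Cat, the catalase that breaks down the hydrogen peroxide of the oxidases, gave 0.76 ± 0.28 (SE, limma, adjusted p = 0.094), and 0.97 without KO replicate 4 (adjusted p = 0.041).

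**Figure D4:**
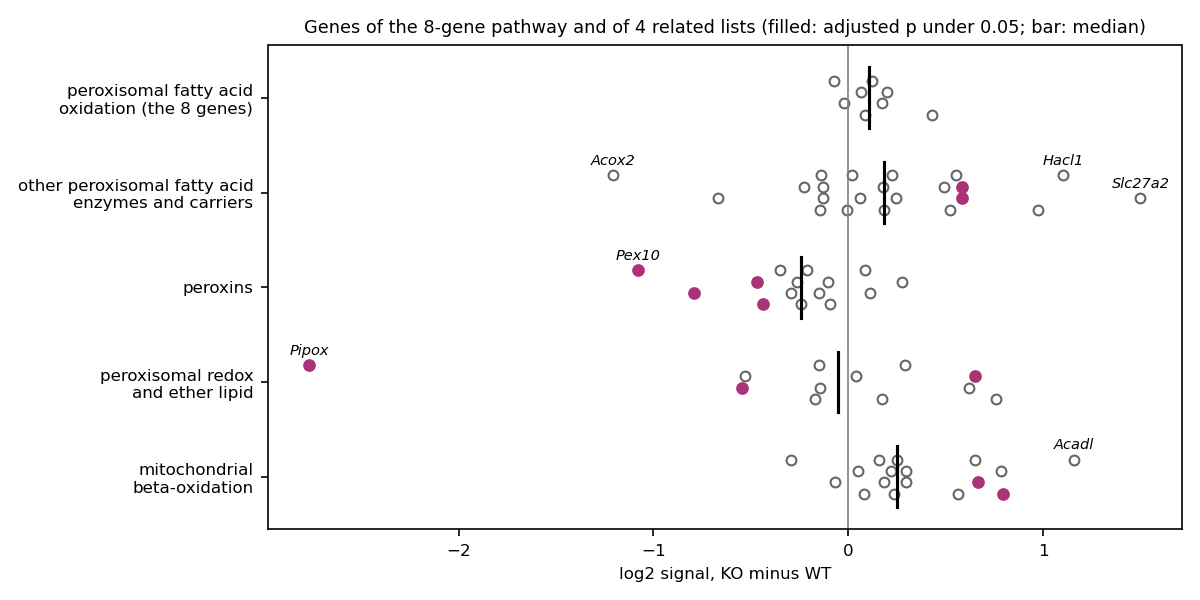
Difference in log2 signal, KO minus WT, of each tested gene in the 8-gene pathway and in 4 related lists (rows), where filled points passed an adjusted p of 0.05, bars are medians, and genes beyond 1 either way are named. The 8 genes have no filled point and lie between -0.07 and 0.43.

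In mitochondrial beta-oxidation, 2 of 17 tested genes rose and 0 fell, or 11.8% called. Among all genes 16.5% were called in either direction and 7.53% were called higher. In the same list 15 of 17 were higher in KO on average, against 47.6% of all genes, with a median difference of 0.25. Etfdh, which passes electrons from the acyl-CoA dehydrogenases to ubiquinone, rose by 0.79 ± 0.14 (SE, limma, adjusted p = 0.015). Acadm, the medium-chain dehydrogenase, rose by 0.66 ± 0.17 (SE, limma, adjusted p = 0.036) but not with the replicate block (adjusted p = 0.065), with 75th percentile scaling, with the methods' t-test or with no filter. Etfdh lost its call without KO replicate 3 (adjusted p = 0.050), and Acadm without WT replicate 2, WT replicate 3, KO replicate 1, KO replicate 2 or KO replicate 3 (adjusted p up to 0.087). Acadl, the long-chain dehydrogenase, gave 1.16 ± 0.45 (SE, limma, adjusted p = 0.106), and 1.51 without KO replicate 4 (adjusted p = 0.042). Whether the 8 peroxisomal genes differed from these mitochondrial genes in response was not tested.

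Some markers of other cells differed between the genotypes on the same arrays. The shares to set beside the counts below are 16.5% of all genes called and 24.1% with genotypes that did not overlap. Of 10 adipocyte markers 9 were tested, 8 were higher in KO on average and 2 passed, Plin1, the lipid droplet coat of fat cells, at 0.71 ± 0.19 (SE, limma, adjusted p = 0.040) and Cfd, adipsin, at 0.68 ± 0.16 (SE, limma, adjusted p = 0.027). Their summed linear signal was 302449 to 426297 in WT and 420315 to 599248 in KO, and it was lowest in WT replicate 2 and, among KO arrays, in KO replicate 4. Those were also the arrays on which Acox3, Hsd17b4, Acaa1a and Pex11a were lowest in their genotype, while Ehhadh and Abcd3 were highest among KO arrays in KO replicate 4. The summed fibroblast, macrophage and brown adipocyte markers were lowest among KO arrays in KO replicate 4 too, so that the match was not particular to adipocyte markers. Of 5 brown adipocyte markers 1 passed, Ppargc1a, and Ucp1, the defining one, lay at 3.02, 1.74, 11.002 and 11.09 in WT replicates 1 to 4 and at 9.0, 12.85, 11.43 and 5.80 in KO replicates 1 to 4. Of 5 neutrophil markers tested, 5 were higher in KO on average and 3 passed, Ngp, Camp and Ltf. In WT, Ngp lay at a log2 signal of 1.93 to 3.78 and Camp at 1.51 to 2.49. On each WT array this was below the lowest signal well above background (2.93 to 4.03). Both therefore passed the filter only through the KO arrays, where they were high, so their calls are no separate support. The 5 summed to 67233 to 100528 in WT and 169189 to 270400 in KO, which did not overlap. Most of that sum came from Ltf (lactoferrin), at a mean log2 signal of 16.27 in WT and 17.58 in KO. S100a8 and S100a9 lay at 10.83 and 10.61 in WT and at 11.32 and 12.81 in KO. The sum therefore does not measure the neutrophil markers as a set. The luminal and secretory markers were 7 of 7 detected, and 5 of them were higher in KO on average. Of these, 2 passed, Krt18 at 0.67 (limma, adjusted p = 0.035) and Epcam at 0.52 (limma, adjusted p = 0.040). Elf5 at -0.35 and Lalba at -0.45 were lower and did not pass (limma, adjusted p = 0.107 and 0.197). The milk protein gene Csn2 gave 0.01. The 7 markers summed to 799720 to 854957 in WT and 858700 to 891222 in KO, which did not overlap. Most of that sum came from Wap, at a mean log2 signal of 18.39 in WT and 18.47 in KO, and from Csn2, at 17.76 and 17.77. Signals this high are set by rank in quantile normalization, and Wap had the same value, 18.475, on KO replicates 1, 3 and 4. Small differences of these genes therefore cannot be read, and the sum does not measure the luminal markers as a set. Of 6 fibroblast markers 6 were higher in KO on average and 1, Dcn, passed. Of 5 T cell markers 0 were higher on average and 2, Cd3e and Cd4, passed as lower. Among the markers tested, 0 of 5 myoepithelial, 0 of 5 endothelial and 0 of 4 macrophage markers passed. Of 5 skeletal muscle markers tested 1 passed as lower, and of 4 B cell markers tested 1 passed as higher. The part of these cells in the signals of the 8 genes was not tested.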

How the data were processed

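Gland RNA of 4 WT and 4 KO dams was measured on 8 Agilent one-colour arrays, 1 gland per array, with groups and replicate numbers taken from the sample titles. The intensity values deposited for each array were processed signals of Agilent Feature Extraction 10.7 (per the submitters' processing notes), background-subtracted within each array only. A value table, which the authors made by quantile normalization in GeneSpring, was also deposited as log2 values and served as an alternative.

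Here the log2 intensities of non-control spots were quantile-normalized with limma 3.58.1 in R 4.3.3, outlier spots were left out and the spots of a probe averaged, giving 41174 probes. Accessions were matched to symbols in RefSeq's GRCm38.p6 gene table (27479 probes, 18749 symbols). A probe was kept if well above background on all 4 arrays of either genotype, and the probe with the highest mean signal stood for its gene. KO was compared with WT by lmFit and eBayes over 14137 genes, with Benjamini-Hochberg adjustment over all of them. Precision is limited by 4 arrays a genotype, and depth does not apply to arrays. The script was tested on simulated data with known changes.

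The replicate numbers were treated as pairs: deviations from the genotype mean correlated between same-numbered arrays at 0.16 to 0.30 in all 4 pairs (mean 0.24). Between different numbers it ran from -0.32 to 0.34 (mean -0.08), the highest of all being WT replicate 1 with KO replicate 3, so the link is not particular to the shared number, and the labels do not give it. The fit without the block is reported.

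The 8 genes and the lists were chosen with earlier results of these data known, so no list is independent evidence. Named genes were all 8 members with every probe, Zbtb7b, in each other list the genes called (at most 5, by smallest p) and the largest difference not called, and the 3 genes nearest to Acox3. A gene picked by this rule is not reported here. Motifs were searched with Python 3 in RefSeq promoter windows. Alternatives were the scaling, background correction, filter, probe choice, test, pairing and leaving out each array.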

Additional observations from a re-analysis of the deposited data

Results flagged for a closer look

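Among 25 genes followed here (the 8 peroxisomal oxidation genes, the genes picked from the other lists and Zbtb7b), each with 4 arrays a genotype, 50 groups of 4 arrays were searched for a value set apart from the other 3 (by the 95% critical value of Dixon's ratio), which chance gives in about 1 group in 20. It was met in 3 groups, none of them of the 8 genes. All 3 values were on KO replicate 4. Phyh lay there at a log2 signal of 10.66, below the 11.04 to 11.10 of the other KO arrays. Acadl lay at 11.67, below 13.02 to 13.18. Pex10 lay at 7.43, above 6.52 to 6.65.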

How the results depend on the processing

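Of the 8 peroxisomal genes, 0 were called in 16 of 17 alternatives and 1, Acox3, with the replicate block. Leaving out each array in turn, the count was 0 throughout. The sign of 4 genes that were not called turned: with 75th percentile scaling Hsd17b4 gave -0.08 and Abcd3 -0.06, and Abcd3 gave -0.09 with another of its probes. Leaving out an array, Ehhadh ran from -0.24 to 0.10, with 0.09 without KO replicate 3. Pex11a ran from -0.10 to 0.08, the latter without WT replicate 1, with 0.07 without KO replicate 4. Abcd3 ran from -0.04 to 0.24 and was below 0 without WT replicate 1 (-0.01), WT replicate 3 (-0.03) and KO replicate 4 (-0.04). Of the other peroxisomal genes 9 were called, and 2 to 13 on leaving out an array. Of the mitochondrial genes 2 were called, 0 to 4 on leaving out an array, and 1 each with the replicate block, the methods' t-test, 75th percentile scaling and dim probes kept. Over all genes 2331 were called, 515 to 3070 on leaving out an array and 1389 with the methods' t-test. The count over all genes rose to 3070 without WT replicate 1 and fell to 515 without KO replicate 3. The cause of these shifts was not tested. The replicate block changed the call of Acox3, Phyh, Pex26, Pex16 and Acadm and of no other among the 8 genes and those picked from the 4 other lists. Background correction by normexp was run on the median signals, chosen after seeing the data, since mean signals were not used here, so the planned version was not run.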
